A study of Mus musculus with 10 samples.

Results

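The liver is the main site at which amino acids are broken down and at which the ammonia they release is made into urea. The 40 genes described here encode the enzymes of these routes, and were taken by symbol from a list written by pathway, with no threshold on a measured value. The list was, however, chosen with earlier results of these data known. All 40 were among the 16647 genes listed in the count table, and all 40 had enough counts to be tested. They fall into 7 pathways, namely the urea cycle (7 genes), phenylalanine and tyrosine breakdown (5), tryptophan breakdown (5), glutamate, glutamine and proline breakdown with the transaminases (7), serine and glyoxylate breakdown (4), branched-chain amino acid and lysine breakdown (7), and breakdown of glycine, dimethylglycine and sarcosine (5).

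The livers of 10 male mice were sequenced, 5 of vehicle-treated (control) and 5 of MI-883-treated animals, with each library from another animal. MI-883 is a small molecule that activates human CAR and blocks human PXR, a pair of nuclear receptors that sense foreign compounds. All mice of both groups were of the humanized PXR-CAR-CYP3A4/3A7 line, which carries the human genes for these receptors and enzymes. The mice were 10 to 15 weeks old when a high-fat diet was begun, and were given the diet for 8 weeks before and throughout the 4 weeks of treatment. MI-883 at 5 mg/kg, or vehicle alone, was given by oral gavage 3 times a week, so diet, sex, strain and gavage were shared by both groups. Library totals lay between 23513665 and 36221514 counts. Levels are given as CPM, counts relative to the library total, corrected with TMM factors, and differences as log2 fold changes of MI-883 against control from edgeR, called at an adjusted P under 0.05. Cyp2b10, the classical CAR target of mouse liver, was between 24.4 and 44.3 CPM in the controls and between 634 and 1375 CPM after MI-883 (log2 fold change 4.80 ± 0.247 (SE), adjusted P = 3.6e-07).

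As background, urea is made in hepatocytes around the portal vein by a cycle that starts in the mitochondrion, where carbamoyl phosphate synthetase joins ammonia and bicarbonate, and ends with arginase in the cytosol. Amino groups reach the cycle through transaminases and glutamate dehydrogenase, while the carbon skeletons pass on to glucose, ketone bodies or the citric acid cycle. Glucagon and glucocorticoids are known to raise many of these genes in fasting.

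Of the 40 genes, 1 rose after MI-883, namely Acmsd, and none fell at this threshold. Of all 13219 genes tested, 1.03% were called in edgeR, 0.764% higher and 0.265% lower. By DESeq2, 1 of the 40 was higher (Acmsd) and 2 were lower (Haao and Sdsl), against 2.20% of all genes called higher and 1.30% called lower. At an unadjusted P under 0.05, 13 members were lower and 1 was higher in edgeR, against 7.49% of all genes lower and 8.09% higher. The fitted log2 fold change was below 0 for 36 of the 40 members and for 49.0% of all tested genes. Under scaling by total counts it was below 0 for 32 members and for 39.0% of all tested genes. Tdo2, Gpt, Bckdhb and Gldc, all near 0, then lay above it. The median log2 fold change was −0.18 over the 40 members, 0.0045 over all tested genes and −0.21 over 4 general hepatocyte markers described below. The members are read from the same livers, so these counts are a description of small differences in 1 direction and not 40 separate results.

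**Figure D1:**
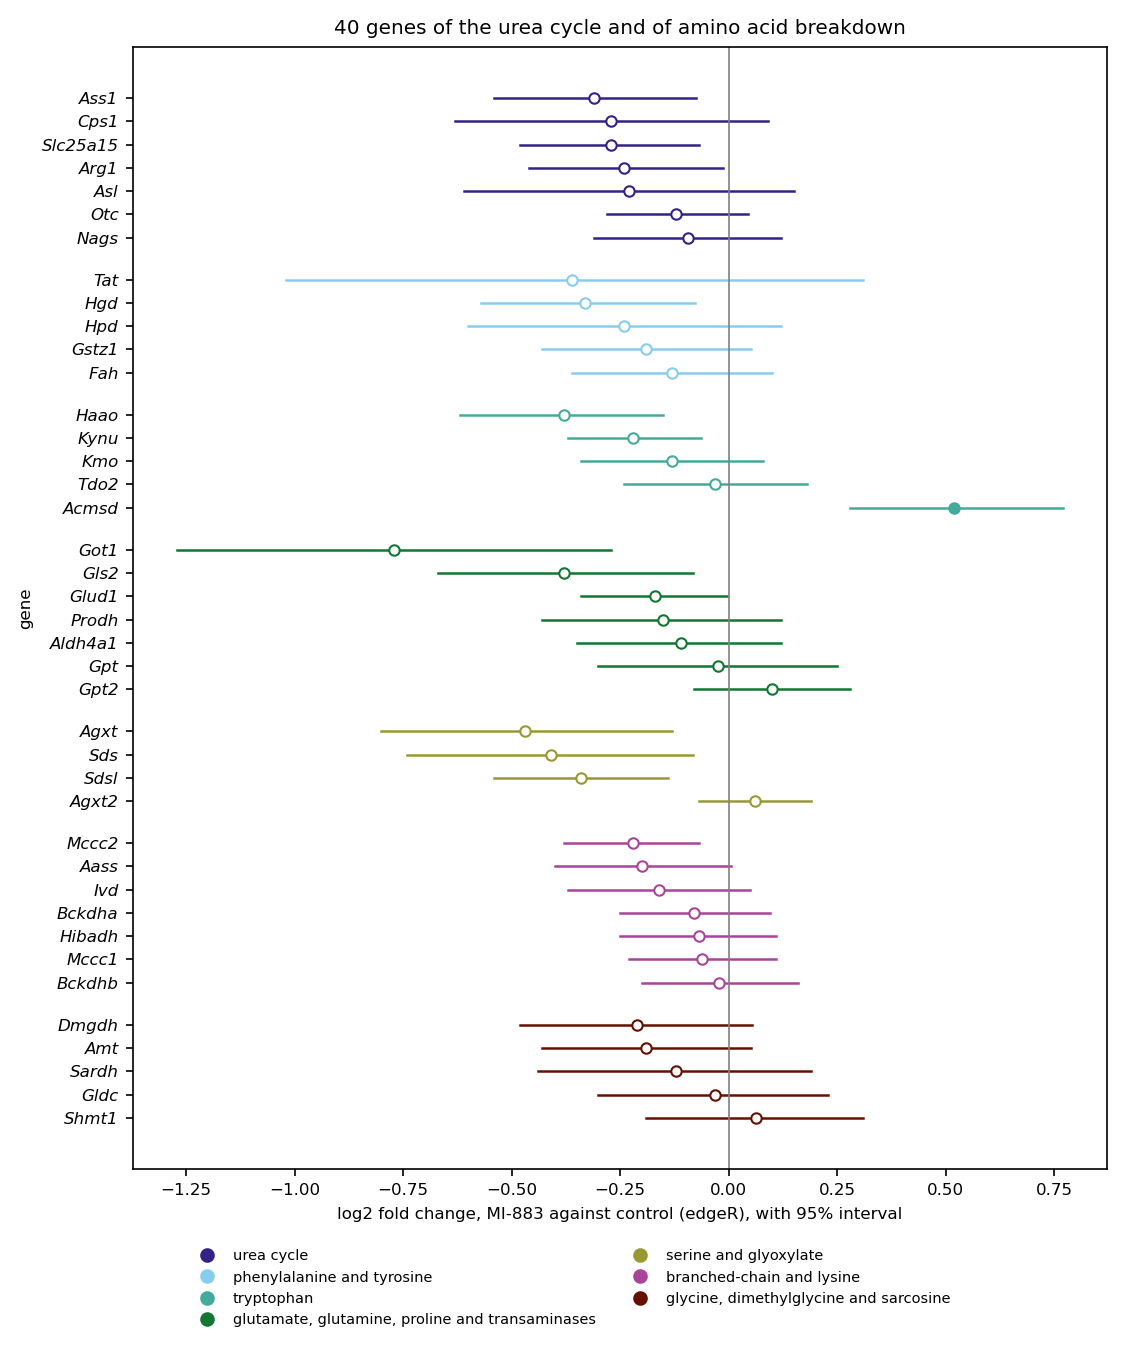
Fitted log2 fold change (MI-883 against control, horizontal axis) of the 40 genes by pathway (colour), with 95% intervals from the edgeR fit of 5 against 5 livers; a filled point marks an adjusted P under 0.05. Acmsd alone is filled, at 0.52, and 36 points lie left of 0, with Got1 farthest at −0.77.

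The promoters of Got1 and Agxt are shown here because these members had the lowest fitted log2 fold changes. Each is the 250 bases before the annotated start, 5′ to 3′ on the strand of the gene, from RefSeq on GRCm38.p6. Capitals mark matches, on either strand, to 4 motifs: AGGTCA (bound by nuclear receptors, CAR and PXR among them), AGAACA (bound by the glucocorticoid receptor), TGACG (bound by CREB and ATF proteins) and TTGCNNAA (bound by C/EBP proteins). None of these motifs overlaps another in the windows printed. The Got1 window is chr19:43524606-43524855 (minus strand) and the Agxt window is chr1:93134990-93135239 (plus strand).
Got1: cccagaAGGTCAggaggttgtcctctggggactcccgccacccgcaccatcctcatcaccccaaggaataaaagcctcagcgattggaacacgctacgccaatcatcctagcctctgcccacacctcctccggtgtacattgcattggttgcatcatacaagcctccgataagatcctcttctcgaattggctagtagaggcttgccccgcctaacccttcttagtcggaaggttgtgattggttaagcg
Agxt: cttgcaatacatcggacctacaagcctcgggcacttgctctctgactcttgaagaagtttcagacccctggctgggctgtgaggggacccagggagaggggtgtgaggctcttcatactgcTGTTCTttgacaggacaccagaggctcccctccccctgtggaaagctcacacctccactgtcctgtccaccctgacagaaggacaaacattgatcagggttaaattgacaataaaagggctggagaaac
Got1 holds AGGTCA 244 bases before its start. Agxt holds TGTTCT, the reverse complement of AGAACA, 129 bases before its start. A window was given for 32 of the 40 members. AGGTCA occurred in 10 of these 32 windows (31.2%) and in 13.8% of all 27025 promoter windows of the same length. TGACG occurred in 4 (12.5%, against 17.9% of all windows), AGAACA in 3 (9.38%, against 16.2%) and TTGCNNAA in 2 (6.25%, against 9.55%). A match is a run of letters and was not tested as a binding site.

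In the urea cycle, all 7 genes had a fitted log2 fold change below 0, with a median of −0.24 (−0.15 without control 5), and none was called. Cps1, which encodes the carbamoyl phosphate synthetase that opens the cycle (chromosome 1, 67122426 to 67231267), stood at 1082, 1550, 1853, 1293 and 2123 CPM in control livers 1 to 5 and at 1149, 1345, 1123, 1534 and 1412 CPM in MI-883 livers 1 to 5. The treated livers all lay within the control range (log2 fold change −0.27 ± 0.166 (SE), 95% interval −0.63 to 0.091, adjusted P = 0.456). Ass1, which joins citrulline and aspartate to argininosuccinate, had the lowest fold change of the cycle. Its controls were at 1277, 1647, 1642, 1483 and 1717 CPM and its treated livers at 1243, 1324, 1004, 1377 and 1319 CPM. Control 1 alone among the controls lay in the range of the treated livers (log2 fold change −0.31 ± 0.109 (SE), adjusted P = 0.197). For Ass1, 26.9% of 100-base stretches also occur in the pseudogene Gm5424, so its counts are uncertain to that extent.

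The other members of the cycle were at −0.27 for Slc25a15, the carrier that brings ornithine into the mitochondrion, −0.24 for Arg1, the arginase that releases urea, −0.23 for Asl, which splits argininosuccinate, −0.12 for Otc, which forms citrulline, and −0.094 for Nags, which makes the N-acetylglutamate that Cps1 requires. Ass1, Arg1 and Slc25a15 had an unadjusted P under 0.05. Their adjusted P values were between 0.190 and 0.293. The 95% interval of Otc ran from −0.28 to 0.045 and that of Nags from −0.31 to 0.12. As these are whole livers, fewer periportal hepatocytes and less RNA per hepatocyte cannot be told apart.

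In phenylalanine and tyrosine breakdown, all 5 genes were likewise fitted below 0 (median −0.24, and −0.14 without MI-883 3), and none was called. Tat, the tyrosine aminotransferase that opens the route and a classical glucocorticoid target, had the largest standard error of the 40 genes. It stood at 302, 805, 1208, 979 and 1114 CPM in the controls and at 552, 1071, 761, 529 and 530 CPM after MI-883. The groups overlapped widely, and control 1 was the lowest of all 10 livers (log2 fold change −0.36 ± 0.309 (SE), adjusted P = 0.608). Hgd, which opens the ring of homogentisate, was at −0.33 (unadjusted P = 0.0140, adjusted P = 0.199). Hpd, which makes homogentisate, was at −0.24, Gstz1, the maleylacetoacetate isomerase, at −0.19, and Fah, the last enzyme of the route, at −0.13. Of the exon bases of Gstz1, 12.2% overlap genes on the other strand, and the strand setting of the counting is not given in the sources used here.

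The fitted log2 fold changes of tryptophan breakdown ran from −0.38 for Haao to 0.52 for Acmsd (median −0.13). Acmsd encodes the decarboxylase that turns aminocarboxymuconate semialdehyde away from the making of quinolinate and NAD. The gene lies on chromosome 1, from 127729413 to 127767564. Its level was 8.72, 9.31, 10.9, 11.2 and 8.60 CPM in control livers 1 to 5, and 13.8, 16.5, 11.6, 14.8 and 13.5 CPM in MI-883 livers 1 to 5. The lowest treated liver (11.6 CPM, MI-883 3) lay above the highest control (11.2 CPM, control 4), so the groups did not overlap. The log2 fold change was 0.52 ± 0.111 (SE), with a 95% interval from 0.28 to 0.77 and an adjusted P of 0.0435 in edgeR and 0.00204 in DESeq2. An exact permutation test (two-sided, on the mean log2 CPM of 5 against 5 livers) gave P = 0.00794, the smallest value it allows. Groups that do not overlap always give this value, so it adds nothing to the lack of overlap, and it is not adjusted over genes. At least 196 counts were behind each value, and 3.32% of its exon bases overlap a gene on the other strand. Groups that do not overlap were found for 2.05% of all tested genes in the higher and for 1.93% in the lower direction.

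The call of Acmsd lay close to the threshold. With 1 liver left out, its log2 fold change lay between 0.46 (without MI-883 2) and 0.59 (without MI-883 3). Its adjusted P stayed under 0.05 without MI-883 3 (0.0319) and passed 0.05 on leaving out each of the other 9 livers, being 0.0502 without control 4 and highest, at 0.115, without control 5. Acmsd is also a kidney gene, and the summed level of 3 kidney markers (Kap, Slc34a1 and Umod) was 0, 1.25, 0.245, 1.07 and 1.54 CPM in the controls and 0.410, 26.1, 9.96, 2.48 and 1.49 CPM in the treated livers. MI-883 2, with the most kidney marker RNA, also had the highest Acmsd level, whereas MI-883 3, the next in kidney markers, had the lowest of the treated livers. Of these markers MI-883 1, 4 and 5 held 0.410, 2.48 and 1.49 CPM, with MI-883 4 alone above the highest control (1.54 CPM). Their Acmsd levels were 13.5 to 14.8 CPM, above the highest control for Acmsd. Whether kidney RNA had a part in the Acmsd level was not tested. Without MI-883 2 and 3 the log2 fold change was 0.53, with an adjusted P of 0.123.

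**Figure D2:**
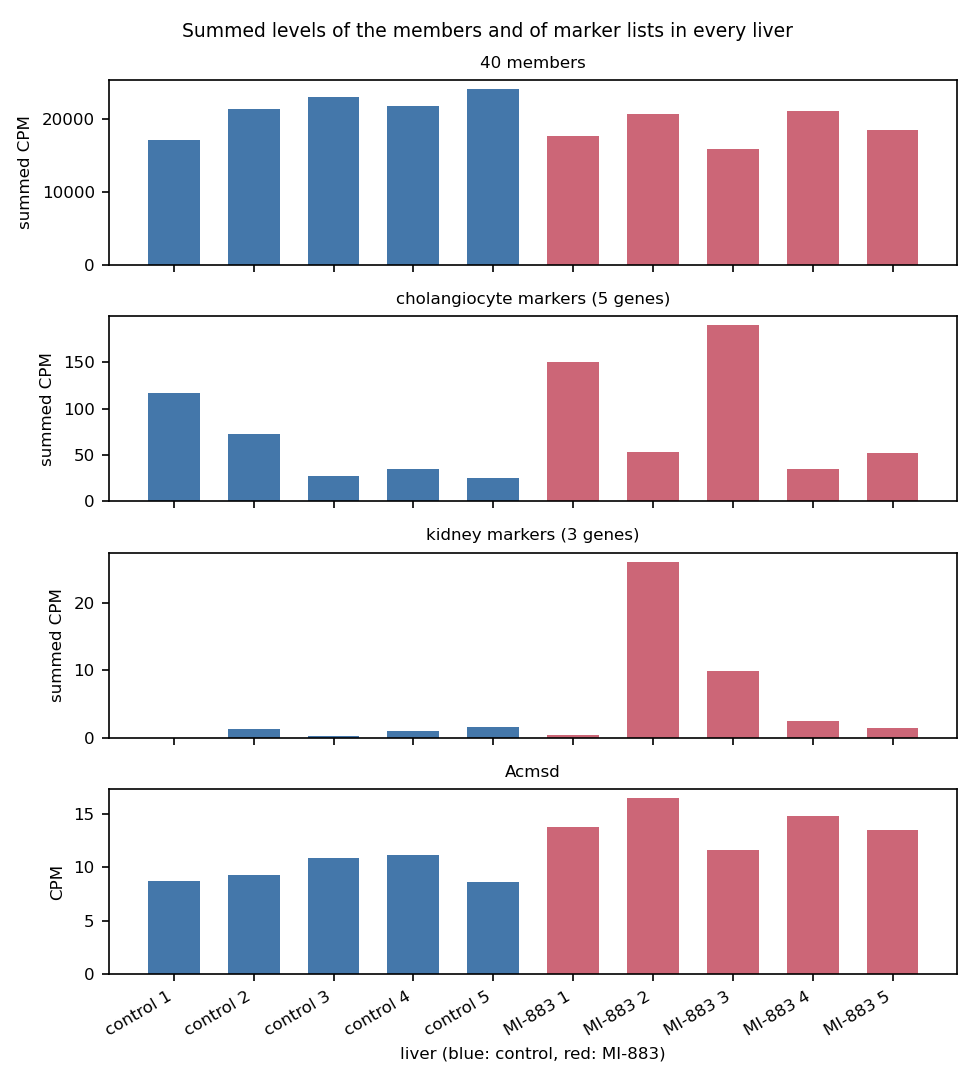
Summed CPM in each of the 10 livers (horizontal axis) of the 40 genes, of 5 cholangiocyte markers and of 3 kidney markers, and CPM of Acmsd; bars start at 0, control livers are blue and MI-883 livers red. Acmsd is higher in every treated liver than in any control. The kidney markers stand highest in MI-883 2 (26.1 CPM) and MI-883 3 (9.96 CPM).

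None of the other 4 tryptophan genes was called in edgeR. Tdo2, the tryptophan dioxygenase that opens the route, was at 1180, 1419, 1282, 1406 and 1277 CPM in the controls and at 1159, 1463, 1094, 1343 and 1366 CPM after MI-883. The groups overlapped, and the 95% interval of its log2 fold change of −0.031 ran from −0.24 to 0.18, with the direction not fixed (0.0084 under scaling by total counts). Haao, which makes the substrate of Acmsd, is given in full because DESeq2 called it, a choice made after its values were seen. It was at 511, 537, 641, 615 and 674 CPM in the controls and at 459, 491, 377, 534 and 422 CPM in the treated livers. Among the treated livers, MI-883 4 alone was above the lowest control (log2 fold change −0.38 ± 0.108 (SE), adjusted P = 0.125 in edgeR and 0.0233 in DESeq2). Kynu, the kynureninase, was at −0.22 with an adjusted P of 0.175, and Kmo, the kynurenine hydroxylase, at −0.13 with an adjusted P of 0.548.

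Among the genes of glutamate, glutamine and proline breakdown and the transaminases, 6 of 7 were fitted below 0 (median −0.15, and −0.078 without MI-883 3 or −0.084 without control 5), and none was called. Gls2, the liver glutaminase that releases ammonia beside the urea cycle, was at 245, 310, 389, 389 and 371 CPM in the controls and at 233, 251, 224, 282 and 323 CPM after MI-883. Controls 1 and 2 lay within the treated range, the latter below MI-883 5 alone (log2 fold change −0.38 ± 0.137 (SE), adjusted P = 0.214). Got1, the cytosolic aspartate aminotransferase, had the largest fitted difference of the 40 genes. Its controls were at 123, 305, 231, 239 and 371 CPM and its treated livers at 145, 189, 111, 163 and 133 CPM. All treated livers were below controls 2 to 5, while control 1 lay among the treated livers. The log2 fold change was −0.77 ± 0.232 (SE), with a 95% interval from −1.27 to −0.27 and an adjusted P of 0.148. Without control 1, the control that lay among the treated livers, it was −0.95 with an adjusted P of 0.0164. On leaving out any other single liver the adjusted P was between 0.145 and 0.298. A call of Got1 thus rested on leaving out the 1 control that overlapped, and is no separate support for a difference. All genes called also rose in that fit, from 136 to 208.

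Glud1, the glutamate dehydrogenase, was at −0.17 (adjusted P = 0.315), and 2.84% of its stretches are shared with Gm43444 and Glud-ps. Prodh and Aldh4a1, which carry proline to glutamate in turn, were at −0.15 and −0.11. Of the stretches of Aldh4a1, 27.5% also belong to the overlapping gene Gm21969. The alanine aminotransferases lay near 0, with Gpt at −0.025 (95% interval −0.30 to 0.25) and Gpt2 at 0.10 (95% interval −0.080 to 0.28). The direction of Gpt was not fixed by these data, since it was 0.0093 under scaling by total counts.

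Serine and glyoxylate breakdown had the lowest median of the 7 pathways, −0.37 over 4 genes, and none was called in edgeR. Sds, the serine dehydratase that makes pyruvate for glucose synthesis, was at 191, 298, 357, 327 and 305 CPM in the controls and at 228, 268, 200, 236 and 181 CPM after MI-883. As with Got1, control 1 alone among the controls lay in the treated range (log2 fold change −0.41 ± 0.152 (SE), adjusted P = 0.222). Without control 1 the value was −0.53 with an adjusted P of 0.0368, and on leaving out any other single liver the adjusted P was between 0.192 and 0.412. This call too rested on leaving out the 1 control that overlapped, and is no separate support for a difference. Of the exon bases of Sds, 29.6% overlap genes on the other strand. Sdsl, a close relative of Sds and its neighbour on chromosome 5, was at 13.3, 13.4, 16.6, 13.2 and 15.6 CPM in the controls and at 12.9, 11.5, 11.3, 11.2 and 10.1 CPM in the treated livers. With TMM scaling it was the only member whose treated livers all lay below all controls (log2 fold change −0.34 ± 0.0935 (SE), adjusted P = 0.115 in edgeR and 0.0452 in DESeq2, exact permutation P = 0.00794). The permutation P follows from the lack of overlap and is no further support. Under scaling by total counts the groups of Sdsl overlapped, and those of Kynu, Haao, Glud1 and Mccc2 did not.

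Agxt, the peroxisomal aminotransferase that removes glyoxylate, was at 230, 282, 357, 361 and 389 CPM in the controls and at 223, 232, 177, 299 and 239 CPM after MI-883. Controls 1 and 2 lay within the treated range (log2 fold change −0.47 ± 0.154 (SE), adjusted P = 0.175). Agxt2, its mitochondrial relative, was among the steadiest of the members, with 205 to 215 CPM in the controls and 206 to 228 CPM in the treated livers (log2 fold change 0.061, 95% interval −0.068 to 0.19).

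**Figure D3:**
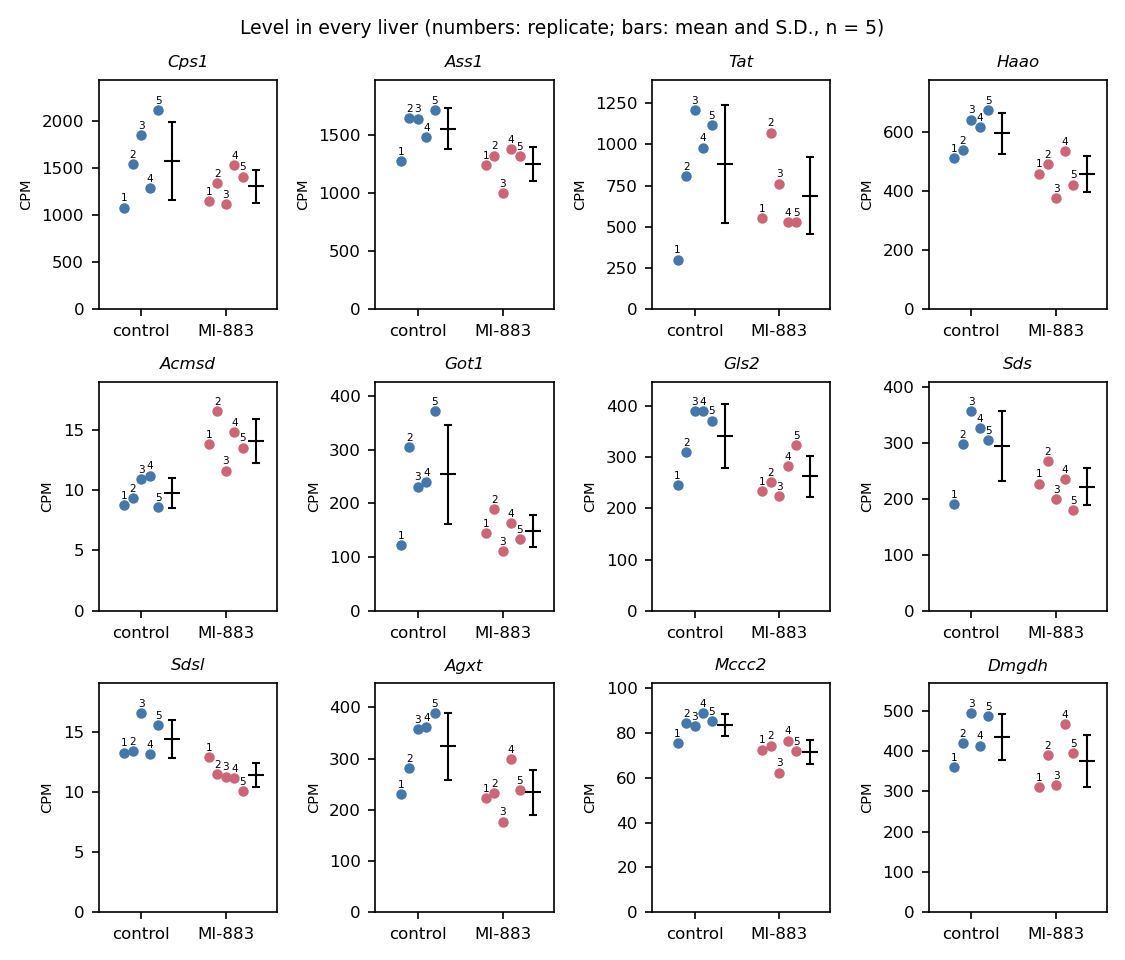
CPM of 12 genes in each liver (numbered points; vertical axes start at 0), with the mean and S.D. of 5 control (blue) and 5 MI-883 (red) livers as black bars. Control 1 sits with the treated livers for Got1, Sds, Gls2 and Ass1, and the groups are apart for Acmsd (lowest treated 11.6 against highest control 11.2 CPM) and Sdsl (highest treated 12.9 against lowest control 13.2 CPM).

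The branched-chain and lysine genes had a median of −0.079, with none called and all 7 fitted below 0 (Bckdhb above 0 under scaling by total counts). Bckdha, a subunit of the dehydrogenase that commits branched-chain keto acids to breakdown, was at 236, 262, 277, 225 and 265 CPM in the controls and at 222, 253, 219, 262 and 242 CPM after MI-883. The groups overlapped (log2 fold change −0.079, 95% interval −0.25 to 0.096). Of its exon bases, 61.7% overlap B3gnt8 on the other strand. Aass, which opens lysine breakdown, was at 308, 397, 344, 341 and 398 CPM in the controls and at 310, 349, 266, 329 and 303 CPM in the treated livers (log2 fold change −0.20 ± 0.0944 (SE), adjusted P = 0.336).

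Mccc2, the beta subunit of the leucine-route carboxylase, was at 75.3, 84.3, 83.0, 88.8 and 85.2 CPM in the controls and at 72.5, 74.2, 62.2, 76.5 and 71.9 CPM after MI-883. Only MI-883 4 exceeded the lowest control, and the log2 fold change was −0.22 ± 0.0710 (SE) with an adjusted P of 0.167. The alpha subunit of the same enzyme, Mccc1, was at −0.061 (95% interval −0.23 to 0.11). Whether the subunits differed from each other was not tested. Ivd, which acts on isovaleryl-CoA, was at −0.16, Hibadh of valine breakdown at −0.069 and Bckdhb, the partner subunit of Bckdha, at −0.021. The direction of Bckdhb was not fixed, being 0.018 under scaling by total counts.

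Of the glycine, dimethylglycine and sarcosine genes, 4 of 5 were fitted below 0 (median −0.12; Gldc lay above 0 under scaling by total counts), and none had an unadjusted P under 0.05. This median rested on single livers, being −0.029 without MI-883 3 and −0.24 without MI-883 4. Gldc, the decarboxylase of the glycine cleavage system, was at 82.9, 99.0, 109, 72.2 and 68.5 CPM in the controls and at 72.1, 87.4, 83.9, 86.3 and 92.5 CPM after MI-883. The treated livers all lay inside the control range (log2 fold change −0.032, 95% interval −0.30 to 0.23). Dmgdh, which demethylates dimethylglycine, was at 359, 419, 494, 413 and 486 CPM in the controls and at 310, 390, 316, 466 and 394 CPM in the treated livers (log2 fold change −0.21 ± 0.123 (SE), adjusted P = 0.428). Sardh, the next enzyme of that route, was at −0.12, Amt of the cleavage system at −0.19, and Shmt1, which exchanges serine and glycine, at 0.064.

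Taken by liver rather than by gene, the members moved together, in the controls as well as in the treated mice. Control 1 was the lowest control for 31 of the 40 genes, against 20.2% of all tested genes. MI-883 3 was the lowest treated liver for 33 of the 40, against 22.1% of all genes. Control 5 was the highest control for 20 members and MI-883 4 the highest treated liver for 24. The median log2 difference of the 40 genes from the control mean was −0.22, 0.017, 0.079, 0.036 and 0.15 in controls 1 to 5, and −0.21, −0.043, −0.41, 0.021 and −0.14 in MI-883 livers 1 to 5. By this measure control 1 was lower than 4 of the 5 treated livers. Over all tested genes the same median stayed between −0.0080 and 0.012 in every liver.

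**Figure D4:**
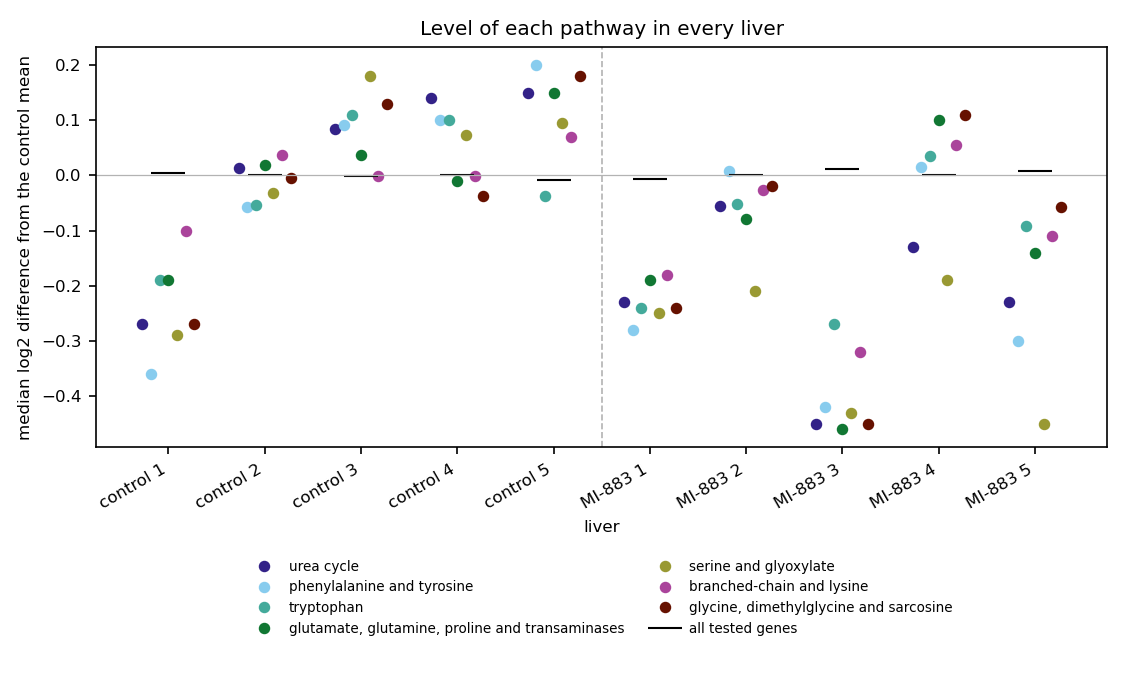
Median log2 difference from the control mean (vertical axis) of the genes of each pathway (colour) in each of 10 livers, with the median over all tested genes as a black dash. All 7 pathways lie below 0 in control 1 and in MI-883 1, 3 and 5. The urea cycle (−0.45 to −0.056) and serine and glyoxylate breakdown (−0.45 to −0.19) lie below 0 in all 5 treated livers.

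Summed over the 40 genes, the level was 17144, 21441, 23018, 21836 and 24186 CPM in the controls and 17659, 20685, 15898, 21147 and 18488 CPM after MI-883, or 1.75% to 2.30% of the counts of a liver. The 3 livers with the lowest sums (MI-883 3, control 1 and MI-883 1) were also the 3 with the highest summed level of 5 cholangiocyte markers (Krt19, Krt7, Epcam, Sox9 and Spp1), which was 190, 117 and 150 CPM there and between 25.0 and 72.8 CPM in the other 7 livers. Spp1 made up most of that sum (180, 108 and 139 CPM in these 3 livers), and Krt19 and Krt7 stayed at or under 1.88 CPM in every liver. All 5 cholangiocyte markers were fitted above 0, and none was called. Their part in the levels of the 40 genes was not tested. The cholangiocyte list was 1 of several cell type lists summed in this way, and not all of them ranked the livers so. Stellate cell markers, for example, summed to 312 CPM in control 2 against 266 CPM in control 1. Of the hepatocyte markers, 4 were tested (Alb, Ttr, Apoa2 and Hnf4a), and they were fitted between −0.31 and −0.0030 (median −0.21) with none called. The median of the 40 members, −0.18, lay within the range of these 4 genes. Summed, mostly from Alb, the 4 stood at 70546, 69057, 68486, 79849 and 78240 CPM in controls 1 to 5. After MI-883 they stood at 65033, 71366, 57962, 66635 and 60270 CPM. MI-883 3 was thus the lowest treated liver for this sum too, but control 1 was not the lowest control. Whether the members fell along with hepatocyte genes in general was not tested. For Ttr the treated livers all lay below all controls, as for 1.93% of all tested genes. Of 7 periportal markers 5 were fitted below 0 (median −0.14), and of 8 pericentral markers 5 were above 0 (median 0.30), with none called in either list in edgeR. DESeq2 called the pericentral marker Glul higher. For Glul the treated livers all lay above all controls, as for 2.05% of all tested genes.

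Leaving out control 1 and MI-883 3, a choice made after their levels were seen, gave 34 of 40 members below 0 and a median of −0.16. Without these livers the groups of 10 members did not overlap in the lower direction (Ass1, Slc25a15, Hgd, Kynu, Haao, Got1, Glud1, Sds, Sdsl and Mccc2), against 3.62% of all genes, and those of Acmsd did not in the higher direction, against 4.27%. Control 1 was left out for its low member levels, so this count follows in part from that choice. In that fit Got1 had a log2 fold change of −0.86 with an adjusted P of 0.0332, and Acmsd one of 0.55 with an adjusted P of 0.0527.

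Compared per length, as TPM (counts per base of annotated exon, scaled to a common total), the 40 genes covered a wide range of levels in control liver. Hpd was highest with a mean of 2216 TPM (range 1688 to 2525), the 53rd of all genes. Ass1 at 1557 TPM and Arg1 at 1447 TPM followed, and neither differed from its neighbour above it beyond the range over the control livers. Tat at 876, Fah at 872, Tdo2 at 819, Cps1 at 686 and Hgd at 685 TPM came next with ranges that overlapped from each to the next. At the low end stood Sdsl at 23.4, Mccc1 at 14.8 and Acmsd at 8.32 TPM, the last rising to 12.6 TPM after MI-883. The called member was thus the one of the lowest level, and the abundant enzymes of the urea cycle and of tyrosine breakdown showed no called difference.

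**Figure D5:**
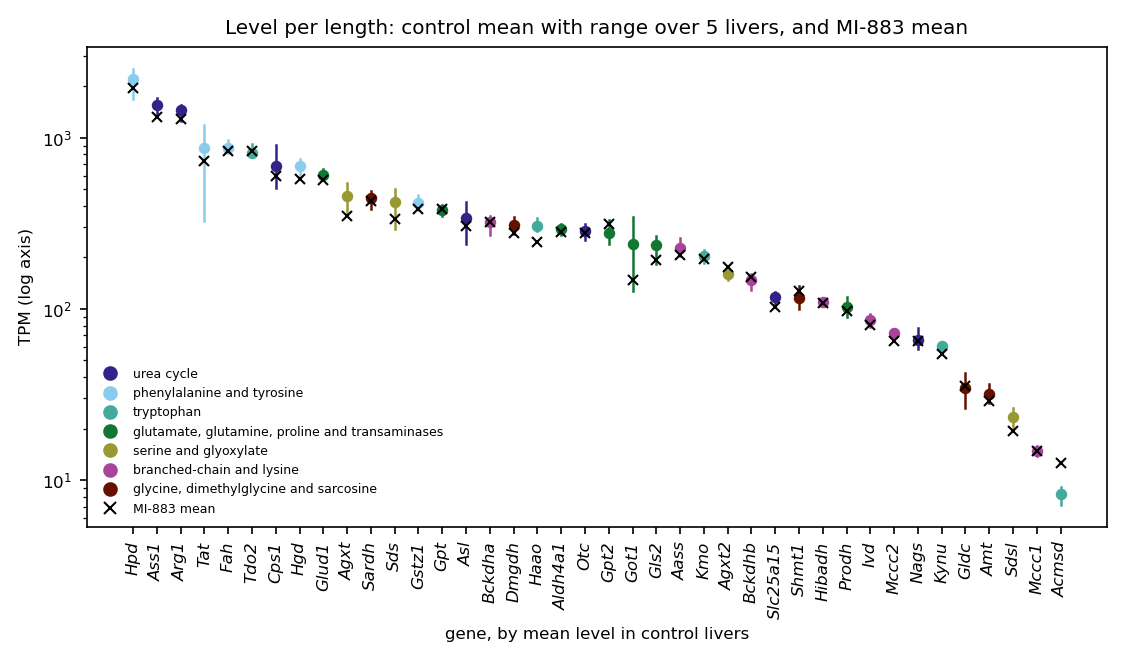
Mean TPM (log axis) of each of the 40 genes in 5 control livers (coloured points, with the range over livers as a line) and in 5 MI-883 livers (black crosses), ordered by control level. Levels run from 2216 TPM for Hpd to 8.32 TPM for Acmsd, the only gene whose cross (12.6 TPM) lies above the control range with an adjusted P under 0.05.

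Of the genes around these pathways, from lists written by pathway role, 2 were called in edgeR, where 1.03% of all tested genes were called. DESeq2 called 6 of them, where it called 2.20% of all genes higher and 1.30% lower. Of 49 further enzymes of the same routes 47 were tested, 30 of them fitted below 0 (median −0.064). Asns alone was called. It encodes asparagine synthetase, which makes an amino acid rather than breaking it down, and is a known target of ATF4. Its level was 0.754, 0.625, 1.23, 0.695 and 1.23 CPM in the controls and 1.09, 5.80, 2.37, 2.83 and 6.38 CPM after MI-883. MI-883 1 lay in the control range and the other 4 treated livers above it (log2 fold change 2.05 ± 0.427 (SE), adjusted P = 0.0396). With 1 liver left out its adjusted P was between 0.00555 (without MI-883 1) and 0.115 (without control 4), and was under 0.05 in 2 of 10 such fits. DESeq2 also called Glul, the pericentral glutamine synthetase, higher (0.27 in edgeR, adjusted P = 0.155 there), and Mcee and Acad8, both of branched-chain breakdown, lower (−0.35 and −0.29 in edgeR, with adjusted P values of 0.0764 and 0.0861 there). The groups did not overlap for 3 of the 47 enzymes in the lower direction and for 1 in the higher. Over all tested genes the shares were 1.93% and 2.05%. Mcee lay at 39.4 to 49.4 CPM in the treated livers against 51.9 to 64.6 CPM in the controls. Acad8 lay at 62.2 to 73.9 against 76.9 to 89.4 CPM, and Hibch at 81.1 to 88.6 against 93.0 to 105 CPM. Glul was the higher gene, at 1214 to 1506 against 1021 to 1163 CPM. Glul, Mcee, Acad8 and Hibch are named after their values were seen.

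Of 15 amino acid transporters 9 were fitted below 0 (median −0.092) and 1 was called. This was Slc6a9, a glycine carrier of the cell membrane, at 80.6, 74.4, 74.2, 54.9 and 74.0 CPM in the controls and at 84.7, 127, 99.5, 129 and 119 CPM after MI-883. All treated livers lay above all controls (log2 fold change 0.64 ± 0.127 (SE), adjusted P = 0.0281). With 1 liver left out its adjusted P was between 0.00815 (without MI-883 1) and 0.0862 (without MI-883 5), and was under 0.05 in 3 of 10 such fits.

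Of 13 regulators of amino acid breakdown 11 were fitted below 0 (median −0.13) and none was called in edgeR. The largest fitted differences were those of Cebpa at −0.30 (adjusted P = 0.133 in edgeR and 0.0151 in DESeq2), Cebpb at −0.26 (adjusted P = 0.518), both transcription factors of hepatocyte metabolism, and Sirt3, a mitochondrial deacetylase, at −0.24 (adjusted P = 0.149). Cebpa stood at 687, 653, 657, 637 and 585 CPM in the controls and at 539, 498, 457, 606 and 519 CPM in the treated livers, of which MI-883 4 alone lay above the lowest control. Atf4, the regulator known for Asns, was at −0.0054 (adjusted P = 0.987). This is its RNA level only, and whether Atf4 had a part in the level of Asns was not tested.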

How the data were processed

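Liver RNA of 5 control and 5 MI-883-treated mice was sequenced as paired ends from a directional library kit. The authors aligned the reads to mm10 with STAR, counted them on genes with featureCounts and deposited raw counts per Entrez gene, without normalization; fastp 0.23.0 is named in the submitters' processing notes. Versions of STAR and featureCounts, the annotation and the strand setting are not given in the sources used here. Every sample column was used.

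Symbols and positions came from the RefSeq annotation of GRCm38.p6, exon lengths from GENCODE on GRCm38. A gene was tested if its counts over all livers came to 60 or more (13219 of 16647), with edgeR 4.0.16 in R 4.3.3 (TMM, quasi-likelihood test, condition as sole term, Benjamini-Hochberg adjustment over all tested genes). Standard errors are the fold change divided by the square root of F, and the exact two-sided permutation test used log2(CPM + 0.5) and all 252 arrangements. A floor of 3 counts was between 0.0838 and 0.133 CPM, and covers counting error only. The fit was tested on simulated data. The 40 genes, the lists and the tests were chosen with earlier results of these data known. Values in every liver are given for members that were called or did not overlap, for the largest difference and the entry enzyme of each pathway; of related lists, the called genes or else the 3 largest differences of at least 1 CPM are named. Alternatives were DESeq2 1.42.0, its size factors, total counts, other count filters, the replicate number as a block and each liver left out. Motifs were searched on both strands.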

Additional observations from a re-analysis of the deposited data

Results flagged for a closer look

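The level of Slc6a9, the glycine carrier that rose after MI-883, was 54.9 CPM in control 4, far below the next lowest control at 74.0 CPM, while the other 4 controls lay close together. It was marked because this gap was large beside the whole range of the 5 controls. Among 92 groups of 5 livers examined in this way it was the only such case, where chance would give about 4.6. Without control 4 the log2 fold change of Slc6a9 was 0.56, with an adjusted P of 0.0615 in edgeR.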

How the results depend on the processing

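The median of each of the 7 pathways stayed below 0 under every alternative run, but its size did not hold. With 1 liver left out it ran from −0.33 to −0.15 for the urea cycle, −0.34 to −0.14 for phenylalanine and tyrosine, −0.18 to −0.092 for tryptophan, −0.20 to −0.078 for glutamate, glutamine, proline and transaminases, −0.45 to −0.31 for serine and glyoxylate, −0.12 to −0.047 for branched-chain and lysine, and −0.24 to −0.029 for glycine, dimethylglycine and sarcosine. Over all settings between 32 (total counts) and 37 (without control 1) of the 40 genes were fitted below 0, against 39.0% and 49.1% of all tested genes there. Calls were less stable. DESeq2 called 3 members, 463 genes in all and 6 genes of the related lists. A minimum of 60 counts in every sample left 1 related call, since it took Asns out of the test. With 1 liver left out, 0 to 2 members were called (Got1 and Sds without control 1), 62 to 208 genes in all and 0 to 2 related genes, and 2 to 11 members did not overlap (11 without control 1, against 3.16% of all genes lower and 3.57% higher there). Total counts gave 5 members that did not overlap, against 1.33% of all genes lower and 2.15% higher. Leaving out control 1 and MI-883 3 gave 11 members that did not overlap, against 3.62% of all genes lower and 4.27% higher, and 1 related call. Leaving out MI-883 2 and 3, the livers with the most kidney marker RNA, gave 0 members, 54 genes and 0 related genes called. Both of these pairs were chosen after seeing the data. Replicate numbers did not pair the livers: the correlation of same-numbered livers was 0.37, −0.11, −0.098, 0.078 and 0.094, and 1 of 5 treated livers was most like the control of its number. With the number as a replicate block, 0 members, 89 genes and 0 related genes were called, and Acmsd had an adjusted P of 0.0809. Directions reversed for members near 0. Under total counts Tdo2 was 0.0084, Gpt 0.0093, Bckdhb 0.018 and Gldc 0.0080. Without control 1 and MI-883 3 Gpt was 0.018 and Bckdhb 0.012, and without MI-883 2 and 3 Gpt was 0.042, Bckdhb 0.014 and Mccc1 0.011. With 1 liver left out Tdo2 lay between −0.081 and 0.022, Gpt between −0.14 and 0.059, Bckdhb between −0.064 and 0.028, Gldc between −0.10 and 0.066 and Shmt1 between −0.0079 and 0.14. Where no reason is given, the cause was not tested. With 5 livers a group, the width of the 95% intervals, such as that of Tat, limits what could be seen.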
